A study of Homo sapiens with 3 samples.

Results

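SON, SRRM2, PNN, HNRNPU and RBM39 encode proteins of the splicing machinery and of nuclear speckles, the nuclear bodies in which splicing factors gather. Their m6A regions were taken as every region of the deposited list with its midpoint inside a fixed hg19 window around each gene, which gave 89 of 41836 regions (0.213%) in windows of 119 kb in all. The list came from nuclear RNA of the established breast cancer cell line MDA-MB-231, precipitated with an antibody against N6-methyladenosine (m6A, 2 libraries) or with rabbit IgG (1 library). No treatment, time point or genetic change is labelled, so the libraries differ only in the antibody named. The list is a single outcome for all libraries: it holds the start, end and strand of each region and no height, so depth, enrichment over IgG and agreement of the m6A libraries are unknown here and values carry no error between replicates. RNA abundance is not in the list either, and more methylation and more RNA of a gene therefore cannot be told apart.

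N6-methyladenosine is written on pre-mRNA by a complex built on METTL3 and METTL14, which favours adenosines within short motifs built around GGAC. In mRNA the mark is known to be frequent in unusually long internal exons and near stop codons. Nuclear RNA also holds unspliced transcripts, so regions can fall in introns as well as in exons. SON and SRRM2 are very large proteins rich in serine and arginine that form the core of the speckle. PNN (pinin) binds the exon junction complex, HNRNPU (also called SAF-A) binds nuclear RNA and chromatin, and RBM39 recognises RNA together with the U2AF splicing factor family.

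Because no sequence in hg19 was used, the letters under the regions are not shown, and the motif is shown instead in the mRNA of each gene, from GENCODE release 29. Each of the 5 genes was matched to 1 principal transcript. The core GGAC, searched on the mRNA strand only, is in capitals, and each line is the first coding stretch of 60 bases with the most copies of it, written 5′ to 3′ with T for U.
SON (bases 2642 to 2701 of the transcript): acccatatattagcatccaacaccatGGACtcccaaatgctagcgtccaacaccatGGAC
SRRM2 (bases 4848 to 4907): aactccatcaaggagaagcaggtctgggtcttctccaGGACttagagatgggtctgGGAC
PNN (bases 222 to 281): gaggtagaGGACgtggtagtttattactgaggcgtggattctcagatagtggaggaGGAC
HNRNPU (bases 1461 to 1520): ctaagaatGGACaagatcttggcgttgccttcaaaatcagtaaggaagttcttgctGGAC
RBM39 (bases 1005 to 1064): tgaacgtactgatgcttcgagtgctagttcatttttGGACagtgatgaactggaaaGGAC
Each stretch holds 2 copies, and 3.41% of all coding stretches of that length in the principal transcripts hold at least as many. At least 1 copy stands in 24.4% of them. The printed stretches were picked as the best of each coding sequence, so 3.41% does not make them rare. How many transcripts hold such a stretch was not counted. Whether a deposited region lies on any of these stretches was not determined.

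The SON mRNA repeats its GGAC core. The 12 bases below were the most frequent stretch of that length with GGAC in the SON coding sequence.
SON repeat: atGGACtcccag
They occurred 11 times, all in the longest exon, and 0.0856% of 19862 principal transcripts hold any such stretch as often. In SRRM2 the most frequent one occurred 2 times, and in PNN, HNRNPU and RBM39 none occurred more than 1 time. The overall density of GGAC was not high in any of the 5. SON held 29 copies (3.29 per kb), SRRM2 30 (3.21 per kb), HNRNPU 17 (2.49 per kb), RBM39 6 (2.41 per kb) and PNN 6 (1.68 per kb), against a median of 3.87 per kb over all principal transcripts, of which 99.0% hold at least 1.

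The genes differ in exon layout. SON has a longest exon of 5916 nt, the third of 12, and SRRM2 one of 6701 nt, the eleventh of 15. Both are entirely coding and make up 67.1% and 71.6% of the mRNA. Only 4.66% and 3.33% of principal transcripts have a longest exon of at least those lengths. In PNN the longest exon is the last of 9, with 2716 nt, of which 1358 nt are coding. HNRNPU and RBM39 also end in their longest exon, of 4207 and 972 nt, which hold 51 and 98 coding nt. These lengths come from GRCh38, and no position was compared between that build and the regions in hg19.

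Number and coverage of m6A regions differed among the genes. SRRM2 (chromosome 16, 2802 to 2822 kb, plus strand) held 31 regions in 20 kb, or 1.55 per kb, and they covered 12.3% of its window. HNRNPU (chromosome 1, 245013 to 245028 kb, minus strand) held 12 in 15 kb, or 0.80 per kb, with 4.26% covered. PNN (chromosome 14, 39644 to 39653 kb, plus strand) held 7 in 9 kb, or 0.78 per kb, with 6.23% covered. RBM39 (chromosome 20, 34291 to 34331 kb, minus strand) held 24 in 40 kb, or 0.60 per kb, and 3.38% was covered. SON (chromosome 21, 34915 to 34950 kb, plus strand) had the lowest density, 15 regions in 35 kb or 0.43 per kb, with 4.13% covered. By coverage PNN ranked above HNRNPU and SON above RBM39, the reverse of their order by number per kb of window. The number per kb from the first to the last gene-strand region was instead lowest in RBM39, at 0.63, with 0.76 in SON.

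**Figure D1:**
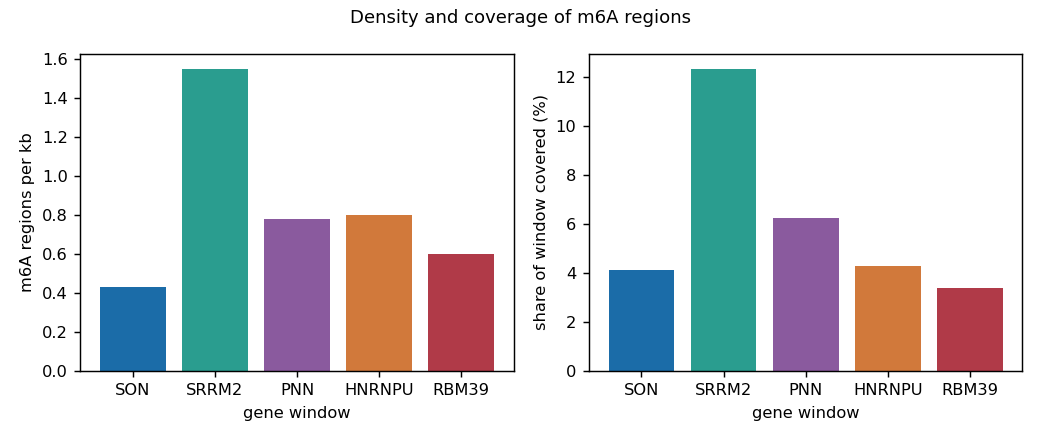
Bars give the number of m6A regions per kb (left panel) and the share of bases covered in percent (right panel) for each of the 5 gene windows, both strands, 1 deposited list and hence no error bars. SRRM2 leads both, with 1.55 regions per kb and 12.3% covered, while SON is lowest in number per kb and RBM39 in coverage.

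All 5 windows were dense for this list. The genome was cut into tiles as long as each window, and those with at least 1 region on a strand were kept. Only 0.0273% of 18334 such tiles held as many regions on 1 strand as SRRM2 did on its own (28 regions; median tile, 1). For RBM39, with 24 regions against a median of 2, the share was 0.226% of 14587 tiles. Shares of 0.943% for HNRNPU (11 regions), 1.19% for SON (15) and 1.88% for PNN (7) followed. The windows were set around genes and the tiles were not, so a tile often cuts through a gene, and the shares are descriptions with no test.

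**Figure D2:**
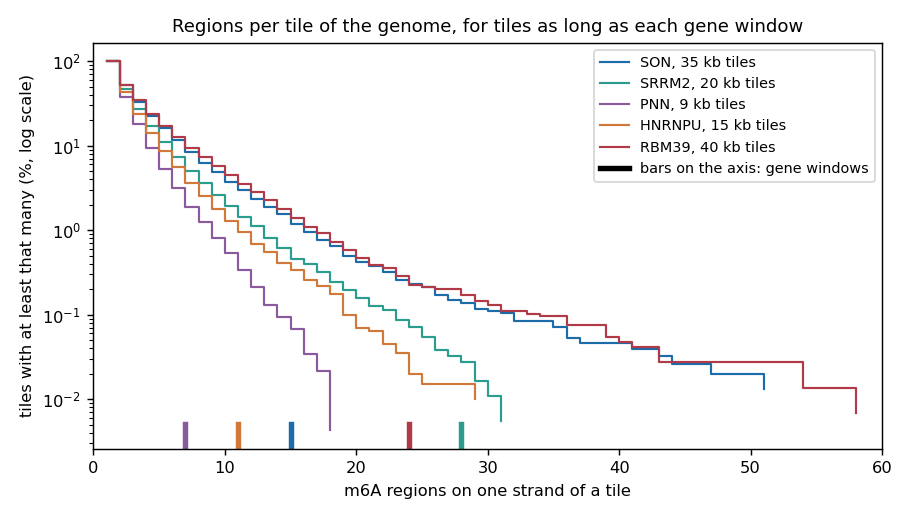
Each line gives, on a log axis in percent, the tiles of the genome with at least the number of m6A regions on 1 strand shown on the horizontal axis, for tiles as long as each gene window. Thick marks on the horizontal axis show the windows themselves, from 7 regions for PNN to 28 for SRRM2, and at the SRRM2 mark the line for its tiles has fallen to 0.0273%.

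The regions lay on the strand of their gene almost throughout. Of the 89, 85 were on the gene strand (95.5%; exact 95% interval 88.9 to 98.8%, counting error only). In the SON window 15 of 15 were on the plus strand, in PNN 7 of 7, and in RBM39 24 of 24 on the minus strand. This held for plus-strand and minus-strand genes alike, in a list where 57.4% of regions are on the minus strand. The share of the whole list on the strand of its genes was not computed. Whether 95.5% is usual for the list is therefore unknown here. The 4 exceptions were 3 minus-strand regions in SRRM2 and 1 plus-strand region in HNRNPU. One of those in SRRM2, from 2815656 to 2815695, lay entirely inside a plus-strand region from 2815646 to 2815738, so 40 nt were listed on both strands. The others in SRRM2 ran from 2815037 to 2815066 and from 2819184 to 2819253, and the one in HNRNPU from 245019244 to 245019282. Their widths ran from 30 to 70 nt. Whether they belong to antisense RNA was not tested.

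**Figure D3:**
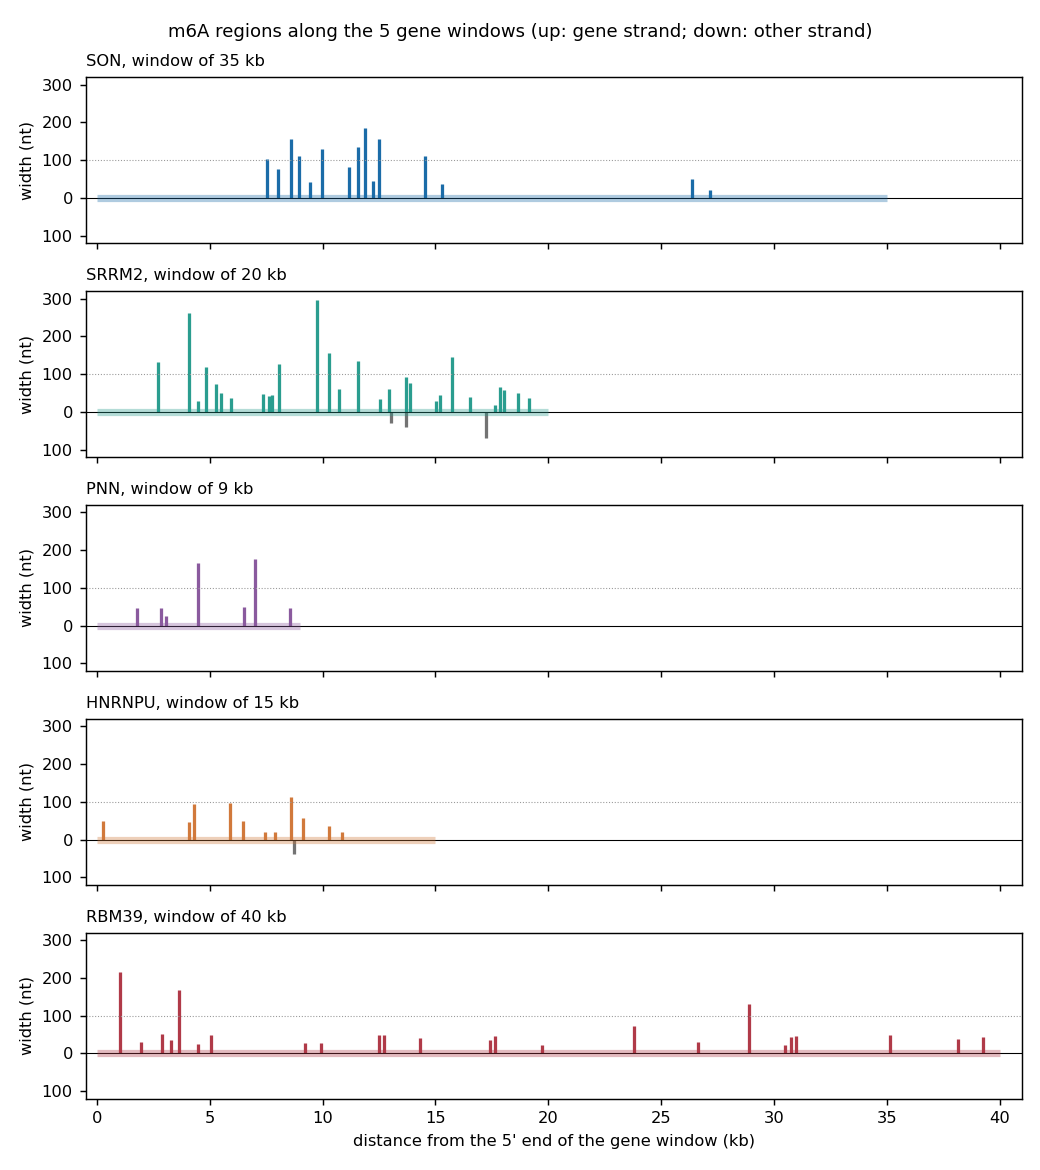
Each vertical line is 1 m6A region, placed by its midpoint in kb from the 5′ end of the gene window, with its height giving its width in nt; lines above the axis are on the gene strand and grey lines below on the other, and the shaded bar is the window. SON has 13 regions in its 5′ part and a gap of 11.0 kb before the last 2, SRRM2 has regions spread from 2.70 to 19.1 kb, and RBM39 is spread over the whole window.

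SON, whose protein is needed for efficient splicing of many weak introns, carried most of its m6A regions in 1 part of the window. Of the 15 regions, 13 lay between 34922505 and 34930324, a block of 7.82 kb when regions at most 2 kb apart were joined and 3 separate runs at 1 kb. The midpoint of the first lay 7.56 kb into the window, and all distances into a window here are to midpoints. The densest stretch, searched among midpoints at most 5 kb apart, ran from 34922505 to 34927570 and had 11 regions on 5.07 kb, with 24.2% of its bases covered. From 5′ to 3′ those 11 regions were 103, 77, 157, 111, 43, 129, 82, 135, 186, 46 and 157 nt wide. The next were of 112 and 37 nt. A stretch of 11.0 kb without a region followed, from 34930325 to 34941343, and then 2 narrow regions of 49 and 21 nt, the last from 34942143 to 34942163. Over 4 equal parts of the window from 5′ to 3′ the counts were 3, 10, 0 and 2, and the mean position on a scale from 0 at the 5′ end to 1 at the 3′ end was 0.37 ± 0.17 (SD over regions). The widest region of SON, of 186 nt, ran from 34926808 to 34926993 inside the block. The densest stretch, found in the same way, held 73.3% of gene-strand regions in SON, 72.7% in HNRNPU and 71.4% in PNN. It held 35.7% in SRRM2 and 29.2% in RBM39. The windows of HNRNPU and PNN are shorter than that of SON, at 15 and 9 kb, and such shares were not computed for the list.

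SRRM2, a component of the spliceosome and a scaffold of speckles, had regions spaced along most of its window. Its first region ran from 2804630 to 2804762, 2.70 kb into the window, and its last from 2821113 to 2821148, at 19.1 kb. Between them the largest gap on the gene strand was 1.49 kb and the median gap 0.36 kb, against a median of 4.69 kb over the whole list. Gaps of the list run along whole chromosomes and include those between genes, whereas the SRRM2 gaps stay inside its window. Counts on both strands in the same 4 parts of the window were 4, 8, 9 and 10. They include the 3 other-strand regions, at 13.1, 13.7 and 17.2 kb, all downstream of the middle of the window, so they show no rise of the gene strand alone. The 28 gene-strand regions spanned 16.5 kb of the genome, longer than the longest exon (6701 nt). The exons of the principal transcript, with the introns between them, span 19.1 kb, and joined as mRNA they have 9353 nt. Which regions lie in exons or introns was not determined. The densest stretch, found as in SON, ran from 2805962 to 2810128 and had 10 regions on 4.17 kb, with 19.9% of its bases covered. Regions over 100 nt numbered 3, 2, 2 and 1 in those parts, too few to read a trend along the window. The widest region of all 5 genes, 296 nt from 2811615 to 2811910, and one of 262 nt from 2805962 to 2806223 were both in SRRM2.

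PNN, the shortest of the 5, held 7 regions at wide spacing. In order they were 48, 47, 26, 167, 49, 178 and 46 nt wide. The first ran from 39645743 to 39645790 and the last from 39652519 to 39652564, with a median gap of 1.18 kb and a largest of 1.92 kb. Both wide regions, from 39648396 to 39648562 and from 39650913 to 39651090, stood among narrow ones, and together they made up 61.5% of the covered bases. The mean position was 0.54 ± 0.28 (SD over regions), near the middle of the window.

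HNRNPU, an abundant nuclear RNA-binding protein gene read from the minus strand, had 1 region at its 5′ end and the rest in the middle. The first, from 245027696 to 245027744 (49 nt), lay 0.28 kb into the window, and 3.75 kb without a region followed. The other 10 gene-strand regions fell between 4.08 and 10.9 kb, with the most downstream one from 245017127 to 245017145. No region lay in the last of the 4 parts of the window (counts on both strands 1, 5, 6 and 0), and none in the 5 kb beyond it. The count of 6 includes the other-strand region, at 8.74 kb. For comparison of lengths only, the last exon of the mRNA has 4207 nt. The widest HNRNPU region, the only one over 100 nt, was 113 nt from 245019341 to 245019453, and 3 regions were only 19, 19 and 21 nt wide.

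RBM39, a splicing factor that is also a transcriptional coactivator, had m6A regions from end to end. They ran from 34329871 to 34330087 at the 5′ end, 1.02 kb into the window, to 34291745 to 34291788 at 39.2 kb. The 24 regions spanned 38.3 kb of the genome. The 17 exons of the principal transcript, with the introns between them, also span 38.3 kb, and joined as mRNA they have 2488 nt. Which regions lie in exons or introns was not determined. Counts in the 4 parts of the window were 9, 6, 3 and 6. The 5′ end held the largest group, 7 regions between 34325931 and 34330087 with widths of 24 to 217 nt, followed by the largest gap of the gene, 4.14 kb. The 217 nt region was the widest of RBM39 and also its first. Another group of 3 narrow regions (45, 43 and 23 nt) lay between 34300021 and 34300509. The median gap of 1.06 kb was longer than in SON (0.41 kb), SRRM2 and HNRNPU (0.60 kb) and shorter than in PNN.

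Close neighbours were counted as runs on the gene strand. When gene-strand regions at most 1 kb apart were joined, the largest run held 8 regions in SRRM2, from 2811615 to 2815929, and 0.345% of the 31554 runs of the list are as large. RBM39 had 7 (0.513% of runs as large), at its 5′ end. SON had 6, from 34922505 to 34925044, with another 5 from 34926113 to 34927570, and HNRNPU had 6 from 245018839 to 245022144 (0.849% of runs as large for both). In PNN no run exceeded 2 regions, the first from 39646835 to 39647087, and 19.3% of runs are as large. These shares count every run of the list, also regions standing alone. Each gene enters with the largest of its runs, picked from a dense window, so the shares are descriptions only. The order of the genes depended on the joining distance. At 0.5 kb the largest runs held 6 regions in SON and SRRM2, 3 in RBM39 and 2 in HNRNPU and PNN, and at 2 kb they held 28 in SRRM2, 13 in SON, 10 in HNRNPU and 7 in RBM39 and PNN. Gaps of at most 1 kb made up 22 of 27 gaps in SRRM2, 11 of 14 in SON, 7 of 10 in HNRNPU, 11 of 23 in RBM39 and 2 of 6 in PNN. Over the list the share was 24.6% of same-strand gaps, which include gaps between genes.

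SON had the highest median width of the 5 genes, although the widest single regions lay in SRRM2 and RBM39. The median width was 103 nt in SON, 57 nt in SRRM2, 48 nt in PNN, 47.5 nt in HNRNPU and 43.5 nt in RBM39, against 45 nt for the whole list (quartiles 33 and 54 nt). Regions over 100 nt, which are 10.3% of the list, numbered 8 of 15 in SON (53.3%; exact 95% interval 26.6 to 78.7%) and 8 of 31 in SRRM2 (25.8%; 11.9 to 44.6%). PNN had 2 of 7 (28.6%; 3.67 to 70.96%), RBM39 3 of 24 (12.5%; 2.66 to 32.4%) and HNRNPU 1 of 12 (8.33%; 0.21 to 38.5%). The intervals of PNN, RBM39 and HNRNPU include the share in the list, and those of SON and SRRM2 do not. They take regions as independent, which neighbours on 1 transcript are not, and no test was made. In SON, 75.4% of covered bases lay in regions over 100 nt, and in HNRNPU 17.7%.

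Dense places of the list hold wider regions, so the genes were also set beside dense tiles only. Among tiles of the window length with 7 or more regions on 1 strand, 0.855% of 1286 had as high a share of regions over 100 nt as SON (8 of 15). For SRRM2 (8 of its 28 gene-strand regions) the figure was 20.3% of 927 tiles, and for PNN 29.8% of 439. For RBM39 it was 52.2% of 1384 and for HNRNPU 77.4% of 727. Set beside equally long dense tiles, the share of SON regions over 100 nt was thus uncommon, and those of the other 4 genes were within the usual range. No limit other than 100 nt was tried, and the narrowest of the 8 SON regions over it had 103 nt. Same-strand regions of the list were never less than 101 nt apart, and each is named as merged. How far joining of close regions set these widths was not tested.

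**Figure D4:**
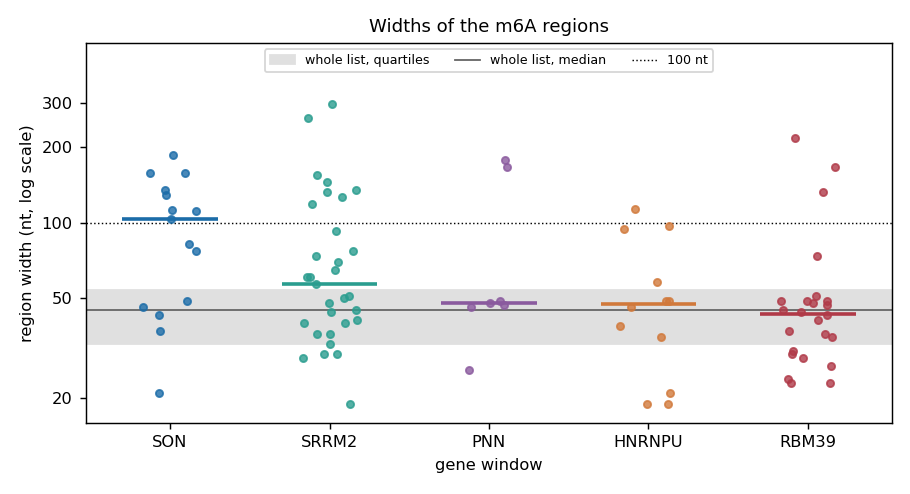
Points are the widths in nt (log axis) of the m6A regions of each gene window, both strands, with a bar at the median of each gene; the grey band and line give the quartiles (33 and 54 nt) and median (45 nt) of the whole list and the dotted line 100 nt. The SON median of 103 nt lies above the band, the SRRM2 median of 57 nt just above it, and the medians of PNN, HNRNPU and RBM39 lie inside it.

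Regions of exactly 49 nt, the most frequent width of the list (8.79% of all regions), numbered 7 of 89 here (7.87%), a share near that background. RBM39 had 3, HNRNPU 2, SON and PNN 1 each, and SRRM2 0 of 31.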

How the data were processed

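Per the labels' protocols, nuclear RNA was precipitated with an m6A antibody (2 libraries) or IgG (1 library) and made into libraries with a ScriptSeq kit. The submitters' processing notes name Bowtie2 and hg19. The peak caller, its thresholds and the role of the IgG library are unstated in the sources at hand. The deposited list gives start and end positions, a strand and a score, and the score as deposited is 1 for every region. Positions are printed in hg19, counted from 1.

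Regions were assigned to windows by midpoint. Covered bases are the union of both strands unless stated. Exon lengths and letters came from 1 GENCODE release 29 transcript per gene (best APPRIS rank, then longest), without coordinates. An exon-by-exon assignment and a wider list of splicing genes needed an annotation in hg19 and were not analysed here.

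All 5 genes are named, with the first, last and widest region of each and its largest run; gaps, dense stretches and opposite-strand regions were chosen after their values were seen. The genes and comparisons were chosen with earlier results of these data known. Functions were tested on simulated data. Python 3.11.15, numpy 2.4.6, pandas 2.3.3 and scipy 1.17.1 were used.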

Additional observations from a re-analysis of the deposited data

How the results depend on the processing

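In all, 85 alternative values were computed, of which 65 stayed within the limit set for them and 20 moved. Mean position, median width, share on the gene strand and share of tiles with as many regions stayed within theirs for every gene and alternative tried. Some of the 65 could not move. SON, PNN and RBM39 have no region on the other strand. Their counts, coverage, widths and strand shares for the gene strand alone were therefore the same by construction. For the median width of PNN the limit was its full range of widths, 26 to 178 nt. For mean position the limit was wide, the SD over regions on either side of the mean, so staying within it says little. Scaled from the first to the last gene-strand region, the mean position went from 0.47 to 0.62 in HNRNPU and from 0.37 to 0.28 in SON. From the first to the last gene-strand region, coverage rose by construction to 7.35% in SON, 14.3% in SRRM2, 8.22% in PNN and 5.65% in HNRNPU. On the gene strand alone SRRM2 coverage was 11.8%. For coverage the limit was narrow, an exact 95% interval that takes the bases of a window as independent, which they are not. The counts of 65 and 20 thus rest on limits of unlike width. Counting only regions at least as wide as the list median left 20 regions in SRRM2, 7 in HNRNPU and 11 in RBM39. Joining at 2 kb gave largest runs of 13 in SON, 28 in SRRM2, 7 in PNN and 10 in HNRNPU, and joining at 0.5 kb gave 2 in HNRNPU and 3 in RBM39. With dense tiles set at 5 or 10 regions, limits chosen after seeing the data, the share as wide as SON was 0.70% at both, and 6 of the values for the other 4 genes moved. No paired analysis was possible because the list has no column for a single library. Leaving out a library and a stricter score were not run for the same reason and because the score does not vary.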

Other observations

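The surroundings of each window held fewer m6A regions than the window itself, and their counts were not set beside the rest of the list. Within 5 kb on either side, HNRNPU and RBM39 had 0 regions, SON 1 on the other strand (34954469 to 34954518, 50 nt) and SRRM2 1 on the other strand (2822019 to 2822039, 21 nt). PNN had 2 on its own strand beyond its 3′ limit, from 39654090 to 39654113 (24 nt) and from 39657308 to 39657330 (23 nt). Regions farther out were not searched for.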
